A study of Oryza sativa with 9 samples.

Results

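In chilled rice shoots, 124 loci had higher transcript levels in libraries labelled ossro1c and lower levels in libraries labelled osdreb2b, each set against the wild type (WT). They were picked by level alone. Levels are CPM, the count of a locus as a share of its library total, scaled to a common size and averaged per genotype. A locus entered the set when its WT mean was at least 2 CPM, its ossro1c mean at least 1.5 times WT, its osdreb2b mean at most WT divided by 1.5, and its ossro1c mean at least 4 times its osdreb2b mean. The count table held 55801 loci, of which 16339 reached 2 CPM in WT, so the set is 0.759% of those. Because the rule used all 3 genotypes, the members' differences between genotypes are a description and carry no test.

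The groups were 3 libraries from ossro1c plants, 3 from osdreb2b plants and 3 from WT plants, all of the variety background ZH11. Both mutants are labelled as knockouts, and the sources used here give neither the allele nor the number of lines. Seedlings carried 4 leaves, and all 3 groups were kept at 4 °C for 2 d, so no group shows unchilled plants. OsSRO1c is one of the SRO proteins of plants, which resemble poly(ADP-ribose) polymerases, and OsDREB2B is a DREB2-type transcription factor of the AP2/ERF class. The design text looks for loci lower in both mutants as candidates for joint control by these proteins, whereas the loci described here stood on opposite sides of WT in the mutants.

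Several members belong to the jasmonate pathway, a lipid-derived hormone route of wounding, defence and cold responses in plants. JAZ proteins hold jasmonate-responsive transcription factors inactive. When jasmonate joined to isoleucine is present, the receptor COI1 marks JAZ proteins for degradation, and JAZ genes are themselves switched on by jasmonate, so that the signal builds its own brake. Other members encode WRKY factors, which act in defence and abiotic stress, and enzymes of cell wall and secondary metabolism.

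Of the targeted transcripts, OsDREB2B went against its label, while OsSRO1c was reduced under both mutant labels. The locus taken as OsSRO1c from knowledge of the rice genome (LOC_Os03g12820), whose name was not found in the reference gene table, averaged 465 ± 31.8 CPM in ossro1c-labelled libraries, 133 ± 4.03 CPM in osdreb2b-labelled libraries and 1841 ± 14.9 CPM in WT (SD, n = 3 each). OsDREB2B (LOC_Os05g27930) averaged 77.0 ± 9.51 CPM in ossro1c-labelled libraries, 308 ± 8.88 CPM in osdreb2b-labelled libraries and 152 ± 3.11 CPM in WT. OsSRO1c was thus reduced under its own label, to 25.3% of WT, and further under the other (7.19%), while OsDREB2B was 202% of WT under its own label and 50.7% under the other. Whether the mutant labels are exchanged, or a lesion leaves its transcript in place, was not tested. The labels are kept as submitted, so a direction given for a mutant is that of the libraries so labelled, and an exchange of the labels would put the set the other way round, higher in osdreb2b and lower in ossro1c plants. Library totals ran from 58398026 to 69336224 counts, and the lowest count of a member in any library was 10, in an osdreb2b-labelled one. The labels do not say whether replicates are separate plants, so the p-values given for other genes measure the spread between these libraries only.

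Opposite movement was uncommon. Of the 16339 loci, 3099 (19.0%) were at least 1.5 times WT under both mutant labels and 2781 were at most WT divided by 1.5 under both. By contrast, 225 (1.38%) were past these limits upward under the ossro1c label and downward under the osdreb2b label, and the ratio of 4 between the mutants removed 101 of them. Both ratios share the same WT libraries, which favours the same side of WT, so the shares are given as a description only. The mirror set, lower under the ossro1c label and higher under the osdreb2b label by the same limits, held 175 loci (1.07%). The members nearest the ratio limit were LOC_Os04g46320 at 4.04 and LOC_Os04g44870 at 4.06, and the nearest loci outside it were LOC_Os11g32240 at 3.97 and LOC_Os04g37730 at 3.91.

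**Figure D1:**
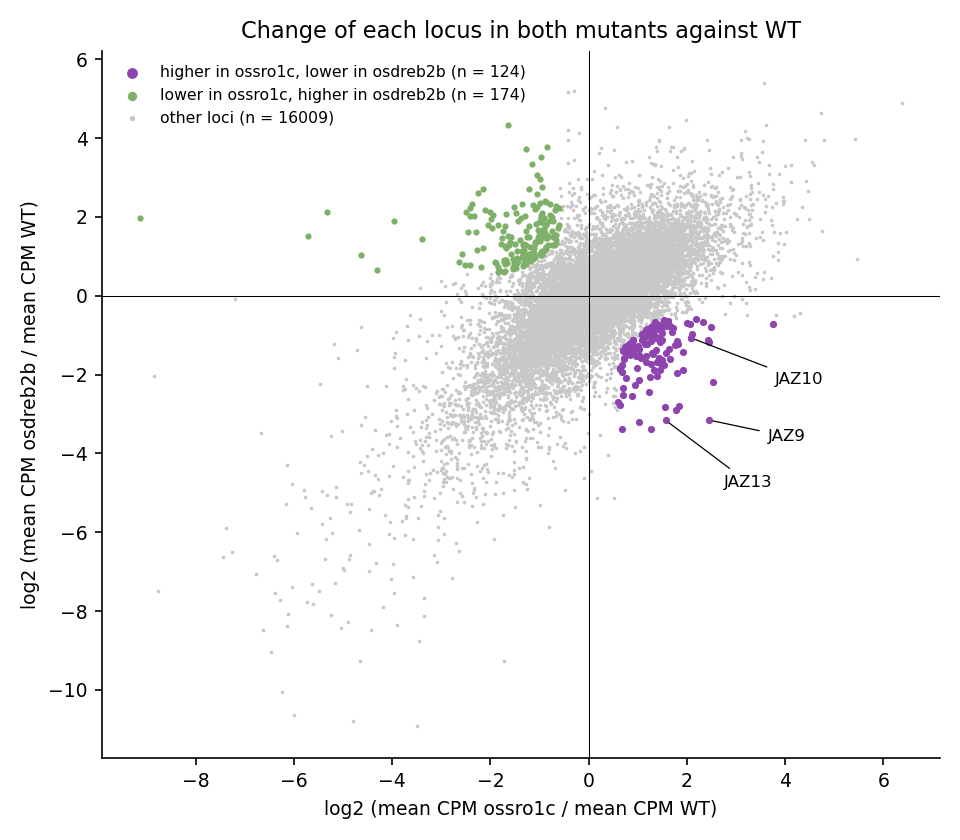
Each point is a locus with a WT mean of at least 2 CPM, placed by the log2 ratio of mean CPM of ossro1c over WT (horizontal) and of osdreb2b over WT (vertical), with the 124 loci of the set in purple at the lower right, 174 of the 175 loci of the mirror set in green at the upper left and 16009 other loci in grey. A further 32 loci with a mean of 0 in a mutant group have no ratio and are not drawn, and JAZ9, JAZ10 and JAZ13 are labelled.

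The members' mean levels had a median of 25.1 CPM in ossro1c-labelled libraries, 3.804 CPM in osdreb2b-labelled libraries and 9.64 CPM in WT, where the median of all 16339 loci was 16.8 CPM. The ossro1c mean was 1.51 to 13.45 times WT, with a median of 2.44, and was at least 4 times WT in 13 members. The WT mean was 1.503 to 10.5 times the osdreb2b mean, with a median of 2.46, and at least 4 times in 20 members. Between the mutants the ratio ran from 4.04 to 48.7, with a median of 5.74, and reached 10 in 20 members and 20 in 8. The rule sets both steps to at least 1.5-fold. The step up from WT was the larger one in 57 members and the step down in 67, and 54 members were past 2-fold on both sides. Of all counts, the members took 1.07%, 1.07% and 1.23% in the 3 ossro1c libraries, 0.192%, 0.184% and 0.192% in the osdreb2b libraries and 0.479%, 0.481% and 0.481% in the WT libraries.

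The genotypes barely overlapped within the members. Every ossro1c library lay above every WT library in 123 of 124 members, against 41.0% of the 16339 loci, and every osdreb2b library lay below every WT library in 123, against 40.6%. Both held in 122, against 5.51%, and since the rule used these contrasts nothing is read from the shares. The exceptions were single libraries of lowly expressed loci, named here after their values were seen. LOC_Os12g16540 stood at 5.27, 5.49 and 2.47 CPM in ossro1c-labelled libraries, 1.40, 0.850 and 0.965 CPM in osdreb2b-labelled libraries and 2.69, 2.35 and 2.70 CPM in WT, so ossro1c replicate 3 fell inside the WT range. LOC_Os04g50790 stood at 9.33, 9.15 and 9.03 CPM in ossro1c-labelled libraries, 2.84, 1.65 and 1.57 CPM in osdreb2b-labelled libraries and 3.65, 4.64 and 2.81 CPM in WT, so osdreb2b replicate 1 reached the lowest WT library.

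One library sat above its group for most members. Replicate 3 of ossro1c gave the highest of the 3 ossro1c values in 80 members (64.5%), and in 43.4% of all 16339 loci, with a median log2 distance from the group mean of 0.11 in the members and 0.009 in all loci. It also gave the lowest value in 26 members and in 6707 of the 16339 loci, where replicates 1 and 2 did so in 5077 and 4555. Over all loci, replicate 3 was thus the most outlying ossro1c library in both directions. Without that library 122 loci met the rule, 108 of them members. Across replicates the median coefficient of variation of the members was 12.2% under the ossro1c label, 14.5% under the osdreb2b label and 7.64% in WT, where the 16339 loci had 12.7%, 7.46% and 5.95%. Of the 124 members, 91 still met the rule whichever single library was left out.

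The loci were also chosen on part of the libraries and read in the rest. The libraries left out belong to the same groups, and the labels do not say whether replicates are separate plants. The shares below therefore concern the spread between these libraries only. This split was chosen after seeing the data. Loci picked by fold limits largely keep their direction in libraries of the same groups, so the shares are a description and carry no test. Loci were chosen by the same rule from 2 replicate numbers per genotype, and the third number was read in the 3 libraries left out. With replicate 1 left out, 141 loci were chosen and 138 of them (97.9%) were above WT under the ossro1c label and below WT under the osdreb2b label in the unused libraries, a pattern of direction shown by 14.6% of all loci at 2 CPM. With replicate 2 left out the count was 126 of 129 (97.7%, against 14.1%), and with replicate 3 left out 114 of 119 (95.8%, against 14.2%). The whole rule, with its fold limits, was met in the unused libraries by 84, 96 and 88 loci when replicates 1, 2 and 3 were left out, or 59.6%, 74.4% and 73.9% of those chosen, where 0.809%, 0.906% and 0.967% of all loci met it. The median step up from WT in the unused ossro1c libraries was 2.25-fold, 2.28-fold and 2.55-fold, where the libraries used to choose gave 2.44-fold, 2.44-fold and 2.33-fold.

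**Figure D2:**
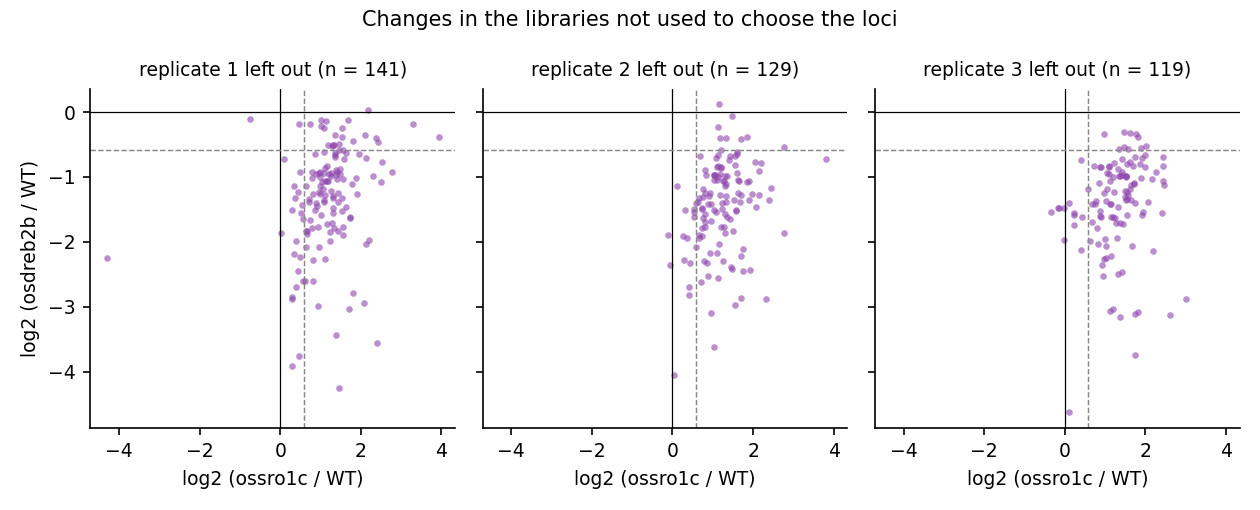
Each panel shows the loci chosen without one replicate number, placed by the log2 ratio to WT of the ossro1c library (horizontal) and of the osdreb2b library (vertical) of the number left out, with dashed lines at 1.5-fold. Most points lie at the lower right of both zero lines in every panel, 138 of 141, 126 of 129 and 114 of 119.

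The count table gives no gene names. Pairs of locus and name were taken from knowledge of the rice genome and used where the name occurs in the RefSeq gene table (assembly ASM3414082v1) near the position that the locus identifier implies. This named 18 members, and 106 members have no checked name. Among the latter, 4 had a listed name that did not pass the check, and they are not counted in their lists. These were LOC_Os02g26430 (WRKY42), LOC_Os07g48260 (WRKY47), LOC_Os04g43800 (PAL5) and LOC_Os01g72370 (IRO2). Of the 18, 7 pairs were recalled after the members were seen (LEA3-2, DXS3, CHT8, UAM1, UGD3, MT1B and HSP23.2). Levels are comparable between libraries for 1 gene and not between genes, since no gene lengths were used.

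**Figure D3:**
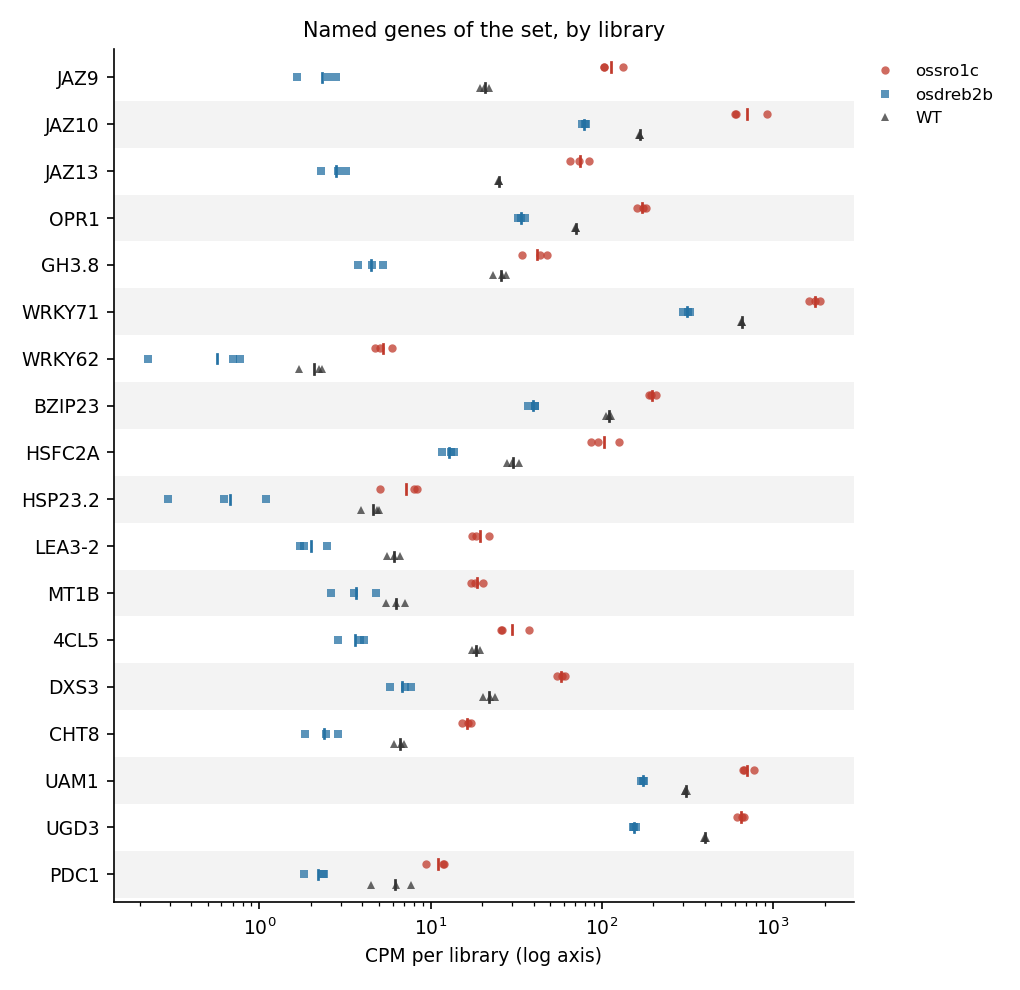
CPM of the 18 named members in each library on a log axis, with points for the 3 libraries of each group (red circles ossro1c, blue squares osdreb2b, black triangles WT) and a short bar at each group mean. In all 18 the red points lie to the right of the black and the blue points to the left, with no overlap between groups.

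The JAZ repressors held the member with the highest ratio between the mutants. JAZ9 (LOC_Os03g08310) stood at 103, 103 and 134 CPM in ossro1c-labelled libraries, 1.65, 2.81 and 2.52 CPM in osdreb2b-labelled libraries and 19.5, 20.6 and 22.1 CPM in WT. Its ossro1c mean was 5.47 times WT, its WT mean 8.90 times the osdreb2b mean, and the ratio between the mutants was 48.7. JAZ13 (LOC_Os10g25230) stood at 65.2, 73.6 and 83.9 CPM in ossro1c-labelled libraries, 2.31, 3.19 and 2.89 CPM in osdreb2b-labelled libraries and 24.9, 25.09 and 25.04 CPM in WT. It had the next highest ratio, 26.5, with the step down from WT (8.95-fold) larger than the step up (2.97-fold). JAZ10 (LOC_Os03g08330) stood at 599, 609 and 919.5 CPM in ossro1c-labelled libraries, 81.1, 79.5 and 76.6 CPM in osdreb2b-labelled libraries and 164, 168 and 167 CPM in WT. Here the step up was the larger one, 4.27-fold against 2.102-fold, and replicate 3 of ossro1c stood well above the other ossro1c libraries, while all remained far above WT. All 3 JAZ genes met the rule whichever library was left out and under TMM scaling, which sets library sizes by a trimmed mean of ratios.

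The other JAZ genes had mixed patterns. Of the 13 JAZ loci with a checked name, 3 were members, against 0.759% of the 16339 loci. The 10 others could be tested by edgeR's quasi-likelihood test with TMM scaling, with Benjamini-Hochberg adjustment over 26112 genes and a threshold of 0.05. Of these 10, 5 rose and 1 fell under the ossro1c label against WT, where 29.4% of all genes rose and 31.4% fell, and the median log2 change was 0.62, against -0.001 for all genes. On raw library totals 8 rose and 0 fell, with the median of all genes at 0.316 for ossro1c against WT, 0.174 for osdreb2b against WT and 0.196 between the mutants. Under the osdreb2b label 3 rose and 4 fell, where 29.9% of all genes rose and 29.6% fell, with a median of -0.13 (0.01 under raw library totals), against 0.033 for all genes. Between the mutants 8 were higher in ossro1c and 0 lower, where 23.6% of all genes were higher and 22.9% lower (median 0.87, against 0.017). Both comparisons with WT share the WT libraries, so a pattern across them is given value by value.

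JAZ11 and JAZ12 came closest to the set. JAZ11 (LOC_Os03g08320), whose locus number lies between those of JAZ9 and JAZ10, stood at 177, 167 and 219.5 CPM in ossro1c-labelled libraries, 20.7, 17.8 and 16.7 CPM in osdreb2b-labelled libraries and 134, 126 and 128 CPM in WT. Under the osdreb2b label it fell by 2.95 (log2) (SE 0.122, adjusted p = 1.6e-10, edgeR), while its step up of 0.22 under the ossro1c label did not pass (SE 0.112, adjusted p = 0.10). That step did pass under upper-quartile scaling (0.38), under raw library totals (0.54) and without ossro1c replicate 2 (0.31). JAZ12 (LOC_Os10g25290) stood at 310, 319 and 391 CPM in ossro1c-labelled libraries, 47.6, 45.4 and 52.8 CPM in osdreb2b-labelled libraries and 267, 261 and 270 CPM in WT, and fell by 2.59 under the osdreb2b label (SE 0.106, adjusted p = 1.4e-10). JAZ12 likewise did not pass upward (log2 0.04, SE 0.099, adjusted p = 0.77), except under raw library totals (0.36).

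The remaining family members had other shapes. JAZ6 (LOC_Os03g28940) averaged 379.9 CPM in ossro1c-labelled libraries, 250.5 CPM in osdreb2b-labelled libraries and 142 CPM in WT, and it rose under both labels (adjusted p = 4.9e-08 and 6.0e-06, edgeR). JAZ3 (LOC_Os08g33160) rose by 0.90 (ossro1c) and 0.84 (osdreb2b). JAZ5 (LOC_Os04g32480) stood at 7.21, 7.21 and 7.51 CPM in ossro1c-labelled libraries, 1.38, 2.03 and 1.20 CPM in osdreb2b-labelled libraries and 1.005, 1.16 and 1.14 CPM in WT, so it rose under the ossro1c label (log2 2.41) with osdreb2b libraries close to WT. JAZ8 (LOC_Os09g26780) had the same shape, with a rise of 0.83 under the ossro1c label, while its 0.17 under the osdreb2b label passed only with upper-quartile scaling (0.29) and raw library totals (0.31). JAZ2 (LOC_Os07g05830) was near 0 in WT, with 1 WT library at 0, and its means were 2.33 CPM for ossro1c libraries and 0.312 CPM for osdreb2b libraries. JAZ7 (LOC_Os07g42370) fell by 0.85 under the osdreb2b label and did not pass under the ossro1c label (0.04), except under upper-quartile scaling (0.20) and raw library totals (0.36). JAZ1 (LOC_Os04g55920) fell by 0.34 under the ossro1c label and by 0.60 in osdreb2b libraries, and the fall in ossro1c libraries was lost with upper-quartile scaling (-0.18) and with raw library totals (-0.02). JAZ4 (LOC_Os09g23660) was spread widely within groups, at 619, 623 and 565 CPM in ossro1c-labelled libraries, 346, 187 and 353 CPM in osdreb2b-labelled libraries and 317, 518 and 255 CPM in WT. Its changes from WT passed in neither direction (log2 0.41 for ossro1c and -0.44 for osdreb2b), although without WT replicate 2 the ossro1c change was 0.75 and passed.

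**Figure D4:**
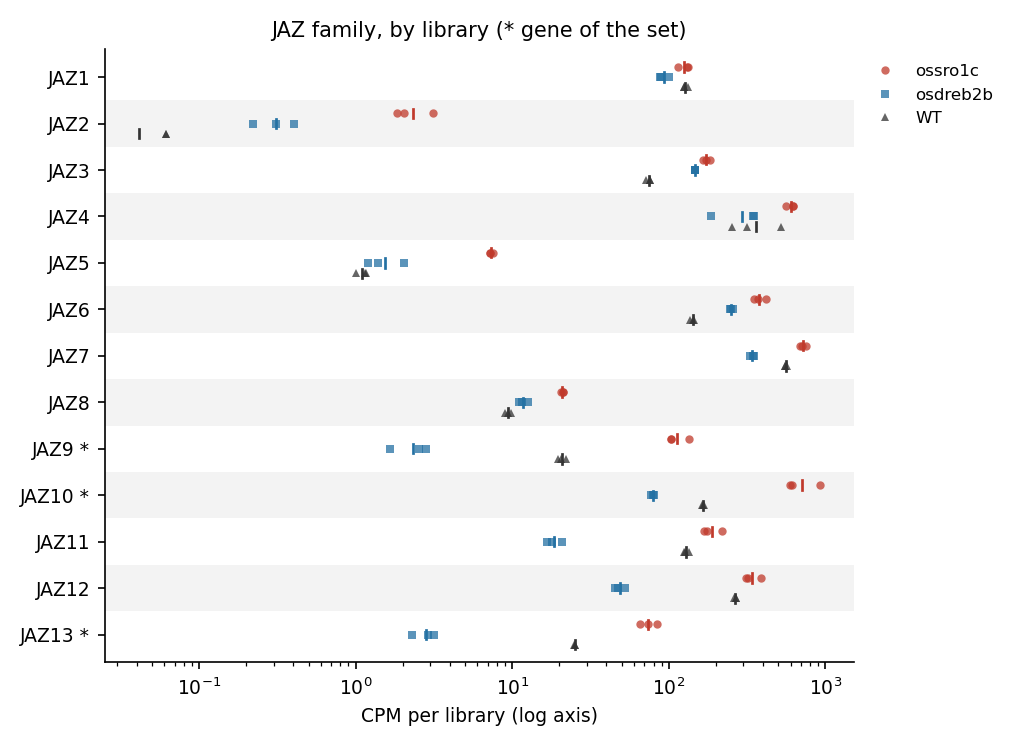
CPM of the 13 JAZ genes with a checked name in each library on a log axis (red circles ossro1c, blue squares osdreb2b, black triangles WT, short bars at group means, an asterisk for the 3 genes of the set). JAZ9, JAZ10 and JAZ13 have WT between the mutants and clear of both, JAZ11 and JAZ12 have WT close to ossro1c, and JAZ5 and JAZ8 have WT close to osdreb2b; the WT library of JAZ2 at 0 is not drawn.

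OPR1 (LOC_Os06g11290), of the oxophytodienoate reductase family, was the member in the list of jasmonate synthesis and signalling genes. Whether OPR1 takes part in jasmonate synthesis was not tested, and OPR7, AOS1, AOS2 and AOC of the same list were not members. OPR1 stood at 160, 175 and 181 CPM in ossro1c-labelled libraries, 33.8, 32.3 and 35.7 CPM in osdreb2b-labelled libraries and 70.5, 69.9 and 71.0 CPM in WT. Its ossro1c mean was 2.44 times WT and its WT mean 2.08 times the osdreb2b mean. Neighbouring genes of the reference table carry the name OPR1 together with other OPR names, so the division of reads between close copies is uncertain. Of the 10 other tested genes of the list, 8 rose and 0 fell under the ossro1c label (median 0.44), where 29.4% of all genes rose and 31.4% fell. Under the osdreb2b label 3 rose and 5 fell (median -0.18), where 29.9% of all genes rose and 29.6% fell, and 7 were higher and 2 lower in ossro1c than in osdreb2b, where 23.6% of all genes were higher and 22.9% lower. On raw library totals the medians were 0.75 for ossro1c and -0.04 for osdreb2b, and 9 rose and 0 fell under the ossro1c label, while 4 rose and 4 fell under the osdreb2b label.

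BHLH148 (LOC_Os03g53020), a factor known to bind JAZ proteins in rice, stood at 194, 207 and 236 CPM in ossro1c-labelled libraries, 26.5, 30.8 and 25.5 CPM in osdreb2b-labelled libraries and 144, 139 and 148 CPM in WT. It fell by 2.52 under the osdreb2b label (SE 0.101, adjusted p = 1.2e-10, edgeR) and rose by 0.25 under the ossro1c label (adjusted p = 0.037). That rise did not pass when ossro1c replicate 3 (0.14), osdreb2b replicate 1 (0.25) or any WT replicate (0.22 to 0.27) was left out. Its ossro1c mean was 148% of WT, just short of the set. JAMYB (LOC_Os11g45740), a jasmonate-induced MYB factor, fell by 2.18 under the osdreb2b label and did not pass under the ossro1c label (-0.25), except without ossro1c replicate 3 (-0.36). The receptor genes went another way. COI1B (LOC_Os05g37690) rose by 0.50 in ossro1c libraries and by 1.43 in osdreb2b libraries, and COI1A (LOC_Os01g63420), which rose by 0.84 (ossro1c) and 0.78 (osdreb2b), did not differ past the threshold between the mutants (0.06), except under raw library totals (0.24).

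Of 5 WRKY genes with a checked name, 2 were members, against 0.759% of the 16339 loci. Most listed WRKY names were not found in the reference gene table. The members LOC_Os02g26430 and LOC_Os07g48260 were listed as WRKY42 and WRKY47. These names were not found in the reference gene table, so both loci are left out of the WRKY count. WRKY71 (LOC_Os02g08440), known in rice aleurone as a repressor of gibberellin-responsive genes, stood at 1757, 1631 and 1881 CPM in ossro1c-labelled libraries, 320.4, 298 and 325 CPM in osdreb2b-labelled libraries and 657, 657 and 652 CPM in WT. All ossro1c-labelled libraries were more than 2 times every WT library, and its WT libraries were tightly grouped. WRKY62 (LOC_Os09g25070), a factor that restrains rice defence, stood at 5.94, 4.73 and 5.06 CPM in ossro1c-labelled libraries, 0.223, 0.769 and 0.698 CPM in osdreb2b-labelled libraries and 2.33, 2.22 and 1.70 CPM in WT. It sat near the floor of 2 CPM, with a WT mean of 2.09 CPM, and dropped below the rule when WT replicate 1 was left out.

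WRKY76 (LOC_Os09g25060), whose locus number is next to that of WRKY62, had another pattern, at 142, 135 and 174 CPM in ossro1c-labelled libraries, 46.7, 39.8 and 43.6 CPM in osdreb2b-labelled libraries and 7.44, 7.01 and 6.11 CPM in WT. It rose by 4.14 in ossro1c libraries and by 2.52 in osdreb2b libraries (adjusted p = 2.5e-11 and 9.2e-10, edgeR). WRKY24 (LOC_Os01g61080) fell by 0.98 (ossro1c) and 3.09 (osdreb2b), and WRKY51 (LOC_Os04g21950) fell by 0.93 (ossro1c) and 1.97 (osdreb2b). All 3 were higher in ossro1c than in osdreb2b libraries, whatever their side of WT, where 23.6% of all genes were higher and 22.9% lower. With 3 genes, nothing is read from this about the family.

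BZIP23 (LOC_Os02g52780), an activator of abscisic acid responses in rice drought, was the member among 24 abscisic acid genes. It stood at 208, 188 and 194 CPM in ossro1c-labelled libraries, 40.8, 40.8 and 37.0 CPM in osdreb2b-labelled libraries and 111, 114 and 106 CPM in WT. Its step down (2.79-fold) was larger than its step up (1.79-fold), and under TMM scaling the step up was 0.52 on the log2 scale and the gene no longer met the rule. Of the 23 other tested genes, 7 rose and 10 fell under the ossro1c label (11 and 7 on raw library totals, 11 and 8 with upper-quartile scaling; median -0.23, or 0.09 on raw library totals), where 29.4% of all genes rose and 31.4% fell. Under the osdreb2b label 10 rose and 11 fell (median -0.83), where 29.9% of all genes rose and 29.6% fell. Between the mutants 9 were higher and 4 lower in ossro1c (13 and 2 on raw library totals), where 23.6% of all genes were higher and 22.9% lower. The phosphatase genes PP2C06 (LOC_Os01g40094) and PP2C68 (LOC_Os09g15670), of the class that blocks abscisic acid signalling, fell by 1.97 and 1.78 under the osdreb2b label. Under the ossro1c label PP2C06 fell by 0.77 and PP2C68 did not pass (-0.23), except without ossro1c replicate 3 (-0.37) and with the replicate number as a block (-0.24). The kinase gene SAPK1 (LOC_Os03g27280) fell by 1.91 (ossro1c) and 3.02 (osdreb2b). SAPK2 (LOC_Os07g42940) and the catabolic gene ABA8OX3 (LOC_Os09g28390) did not differ past the threshold between the mutants (log2 -0.13 and 0.15), although SAPK2 passed without ossro1c replicate 3 (-0.24) and ABA8OX3 under raw library totals (0.33).

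GH3.8 (LOC_Os07g40290), an enzyme that joins auxin to amino acids, stood at 34.1, 47.6 and 43.6 CPM in ossro1c-labelled libraries, 3.76, 5.25 and 4.53 CPM in osdreb2b-labelled libraries and 27.6, 26.2 and 23.17 CPM in WT. The larger step was on the osdreb2b side, 5.69-fold down, with 1.63-fold up on the ossro1c side. Under TMM scaling the step up was 0.38 on the log2 scale and the rule was not met. Among 19 other tested genes of auxin, cytokinin, brassinosteroid and strigolactone, 7 rose and 5 fell under the ossro1c label (median 0.11), where 29.4% of all genes rose and 31.4% fell. For osdreb2b against WT 6 rose and 6 fell (median 0.07), where 29.9% of all genes rose and 29.6% fell, and 9 were higher and 4 lower in ossro1c than in osdreb2b, where 23.6% of all genes were higher and 22.9% lower. The medians were 0.43 for ossro1c and 0.21 for osdreb2b on raw library totals, and 0.27 and 0.18 with upper-quartile scaling. BZR1 (LOC_Os07g39220), a brassinosteroid transcription factor, rose by 2.83 (ossro1c) and 1.67 (osdreb2b), and DWARF (LOC_Os03g40540), a brassinosteroid synthesis gene, rose by 0.86 under the ossro1c label and did not pass under the osdreb2b label (-0.005). RR10 (LOC_Os12g04500), a cytokinin response regulator, went opposite to the set, with -0.48 for ossro1c and 0.52 for osdreb2b, and its ossro1c change was lost on raw library totals (-0.16). The strigolactone genes D14 (LOC_Os03g10620) and D3 (LOC_Os06g06050) did not differ past the threshold between the mutants (log2 -0.20 and -0.20), although D14 passed without ossro1c replicate 3 (-0.33).

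Among heat shock proteins and factors, HSFC2A (LOC_Os02g13800), a class C heat shock factor, was the member found from the list. It stood at 95.3, 87.0 and 126 CPM in ossro1c-labelled libraries, 13.1, 11.7 and 13.7 CPM in osdreb2b-labelled libraries and 32.9, 30.0 and 28.1 CPM in WT. Its step up was 3.39-fold and its step down 2.36-fold, with ossro1c replicate 3 the highest library. HSP23.2 (LOC_Os04g36750), a small heat shock protein gene added later, stood at 8.03, 5.045 and 8.37 CPM in ossro1c-labelled libraries, 1.101, 0.294 and 0.623 CPM in osdreb2b-labelled libraries and 3.93, 4.89 and 5.001 CPM in WT. The ossro1c and WT libraries nearly touched, at 5.045 and 5.001 CPM, and the gene met the rule in 6 of 9 sets with 1 library left out and not under TMM scaling.

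The rest of the heat shock list had other shapes. Of 22 other tested genes, 3 rose and 14 fell under the ossro1c label (median -0.96, or -0.64 on raw library totals), where 29.4% of all genes rose and 31.4% fell. In osdreb2b libraries 5 rose and 11 fell (median -0.45), where 29.9% of all genes rose and 29.6% fell, and 4 were higher and 11 lower in ossro1c than in osdreb2b (median -0.67), where 23.6% of all genes were higher and 22.9% lower. Within the same class C, HSFC2B (LOC_Os06g35960) stood at 52.0, 55.3 and 61.2 CPM in ossro1c-labelled libraries, 5.97, 6.46 and 8.13 CPM in osdreb2b-labelled libraries and 42.8, 38.1 and 38.4 CPM in WT. It fell by 2.68 under the osdreb2b label (SE 0.129, adjusted p = 6.8e-10, edgeR), and its step up of 0.18 did not pass, except under upper-quartile scaling (0.34) and raw library totals (0.50). HSFC1B (LOC_Os01g53220) had the mirror pattern, at 23.5, 22.3 and 31.5 CPM in ossro1c-labelled libraries, 188, 171 and 197 CPM in osdreb2b-labelled libraries and 46.1, 44.2 and 44.0 CPM in WT, with log2 changes of -1.11 for ossro1c and 1.91 for osdreb2b (adjusted p = 3.4e-06 and 1.6e-08). HSFA2C (LOC_Os10g28340) moved likewise, by -2.02 (ossro1c) and 0.48 (osdreb2b). HSFA1 (LOC_Os03g63750) and HSFB2A (LOC_Os04g48030) did not differ past the threshold between the mutants (-0.13 and 0.21), although HSFB2A passed under raw library totals (0.38).

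Of the remaining protective genes, LEA3-2 (LOC_Os03g20680), a late embryogenesis abundant protein of dehydration tolerance, stood at 18.5, 17.5 and 21.97 CPM in ossro1c-labelled libraries, 1.82, 1.73 and 2.49 CPM in osdreb2b-labelled libraries and 5.55, 6.15 and 6.61 CPM in WT. Its steps were nearly even, 3.17-fold up and 3.03-fold down. MT1B (LOC_Os03g17870), a metallothionein that binds metal ions, stood at 18.3, 17.2 and 20.4 CPM in ossro1c-labelled libraries, 4.79, 2.62 and 3.58 CPM in osdreb2b-labelled libraries and 6.28, 5.47 and 7.07 CPM in WT. Here the osdreb2b libraries came close to WT, and without osdreb2b replicate 2 the gene no longer met the rule. CHT8 (LOC_Os10g39680), a chitinase gene of defence against fungi, stood at 15.2, 16.6 and 17.2 CPM in ossro1c-labelled libraries, 2.89, 1.85 and 2.46 CPM in osdreb2b-labelled libraries and 7.003, 6.74 and 6.13 CPM in WT, at 2.47-fold up and 2.76-fold down. LEA3-2 and CHT8 were recalled after the members were seen, and the lists of related genes held no member. Of 13 tested dehydrin, LEA and osmoprotectant genes, 3 rose and 6 fell for ossro1c, and 2 rose and 9 fell for osdreb2b. Of 9 tested pathogenesis-related and immune genes, 3 rose and 4 fell for ossro1c, and 2 rose and 5 fell for osdreb2b. Of all genes, 29.4% rose and 31.4% fell for ossro1c, and 29.9% rose and 29.6% fell for osdreb2b.

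Metabolic members came from several routes. 4CL5 (LOC_Os08g34790), a coumarate CoA ligase at the entry to lignin and flavonoids, stood at 25.9, 26.3 and 37.4 CPM in ossro1c-labelled libraries, 2.87, 3.88 and 4.11 CPM in osdreb2b-labelled libraries and 17.44, 19.5 and 18.3 CPM in WT. Its step down was 5.09-fold, its step up 1.62-fold rested on ossro1c replicate 3, without which the rule was not met, and it was not met under TMM scaling either. Of 8 other tested phenylpropanoid and flavonoid genes, 6 rose and 0 fell under the ossro1c label (median 0.67), where 29.4% of all genes rose and 31.4% fell. In osdreb2b libraries 4 rose and 1 fell (median 0.31), where 29.9% of all genes rose and 29.6% fell, and 5 were higher and 2 lower in ossro1c than in osdreb2b, where 23.6% of all genes were higher and 22.9% lower. CHS1 (LOC_Os11g32650), the chalcone synthase that opens flavonoid synthesis, rose by 1.73 (ossro1c) and 1.02 (osdreb2b), and 4CL2 (LOC_Os02g46970) rose by 1.20 under the ossro1c label and did not pass under the osdreb2b label (0.01). CAD2 (LOC_Os02g09490), a cinnamyl alcohol dehydrogenase of lignin, rose by 0.70 in ossro1c-labelled libraries and fell by 0.48 in osdreb2b-labelled libraries (adjusted p = 0.012 for the fall, edgeR), a fall that did not pass without osdreb2b replicate 3 (-0.41) or WT replicate 3 (-0.43). 4CL4 (LOC_Os06g44620) did not differ past the threshold between the mutants (0.14), except under raw library totals (0.32) and without ossro1c replicate 3 (0.18).

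DXS3 (LOC_Os07g09190), a deoxyxylulose phosphate synthase of the plastid isoprenoid route, stood at 58.5, 60.8 and 54.6 CPM in ossro1c-labelled libraries, 7.08, 7.70 and 5.79 CPM in osdreb2b-labelled libraries and 20.3, 23.6 and 22.2 CPM in WT. The groups were evenly spaced, at 2.63-fold up and 3.22-fold down. UGD3 (LOC_Os03g55070), a UDP-glucose dehydrogenase that feeds cell wall synthesis, stood at 657, 617 and 681 CPM in ossro1c-labelled libraries, 153, 158 and 152 CPM in osdreb2b-labelled libraries and 399, 394 and 405 CPM in WT. UAM1 (LOC_Os03g40270), a UDP-arabinopyranose mutase of cell wall arabinan synthesis, stood at 676, 665 and 780 CPM in ossro1c-labelled libraries, 174, 170.4 and 176 CPM in osdreb2b-labelled libraries and 315, 307 and 308 CPM in WT. Both wall genes had tight groups and ratios near the limit (4.22 for UGD3 and 4.07 for UAM1). UAM1 was lost without ossro1c replicate 3, and neither met the rule under TMM scaling, where the step up was 0.39 on the log2 scale for UGD3 and the ratio was below 4 for both.

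PDC1 (LOC_Os05g39310), a pyruvate decarboxylase of ethanol fermentation, stood at 11.8, 9.40 and 12.01 CPM in ossro1c-labelled libraries, 1.82, 2.39 and 2.36 CPM in osdreb2b-labelled libraries and 7.67, 6.32 and 4.49 CPM in WT. WT was widely spread but clear of both mutants, and under TMM scaling the rule was not met (step up 0.53 on the log2 scale). ADH1 (LOC_Os11g10480), the alcohol dehydrogenase of the next step of the same route, did not share the pattern, at 81.2, 72.7 and 81.1 CPM in ossro1c-labelled libraries, 66.8, 66.9 and 72.6 CPM in osdreb2b-labelled libraries and 566, 584.5 and 596.5 CPM in WT. It fell by 3.21 (ossro1c) and 3.22 (osdreb2b) (adjusted p = 3.8e-12 and 1.9e-12, edgeR), and the difference of 0.01 between the mutants (adjusted p = 0.94) passed on raw library totals alone (0.19). Of the 14 other tested genes of sugars, starch and fermentation, 5 rose and 5 fell under the ossro1c label (median -0.58, or -0.26 on raw library totals), where 29.4% of all genes rose and 31.4% fell. Under the osdreb2b label 6 rose and 5 fell (median -0.14, or -0.03 with upper-quartile scaling), where 29.9% of all genes rose and 29.6% fell, and 5 were higher and 7 lower in ossro1c than in osdreb2b, where 23.6% of all genes were higher and 22.9% lower. The sugar transporter gene SWEET13 (LOC_Os12g29220) passed in both opposite directions, with a rise of 0.49 for ossro1c and a fall of 0.75 for osdreb2b (adjusted p = 2.9e-04 and 5.9e-06), and was kept out of the set by its ratio of 2.67 between the mutants. SWEET14 (LOC_Os11g31190) rose by 2.72 (ossro1c) and 0.46 (osdreb2b), whereas SWEET11 (LOC_Os08g42350) went opposite to the set (-0.72 for ossro1c and 1.64 for osdreb2b).

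Among members without a checked name, 4 are given by locus identifier, taken as those with the highest ratio between the mutants at 5 CPM or more in WT and those with the highest WT level. LOC_Os01g62430 stood at 95.2, 98.1 and 107 CPM in ossro1c-labelled libraries, 3.93, 4.14 and 3.61 CPM in osdreb2b-labelled libraries and 27.1, 30.1 and 30.5 CPM in WT, a ratio of 25.7. LOC_Os02g26430 stood at 26.2, 29.1 and 29.2 CPM in ossro1c-labelled libraries, 1.74, 1.16 and 1.60 CPM in osdreb2b-labelled libraries and 13.8, 14.3 and 13.4 CPM in WT, a ratio of 18.8. Both had the larger step on the osdreb2b side (7.51-fold and 9.22-fold). LOC_Os03g11900 stood at 780.2, 804 and 874 CPM in ossro1c-labelled libraries, 72.7, 76.4 and 78.6 CPM in osdreb2b-labelled libraries and 441, 439 and 451 CPM in WT. LOC_Os02g04130 stood at 335, 350.3 and 463 CPM in ossro1c-labelled libraries, 98.3, 85.7 and 93.6 CPM in osdreb2b-labelled libraries and 216, 225 and 214 CPM in WT, with ossro1c replicate 3 above the other ossro1c libraries.

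The members were spread over all 12 chromosomes, as read from the locus identifiers, with the most on chromosome 2. Chromosome 2 held 26 members (21.0%), against 12.3% of the 16339 loci and 8.57% of the mirror set, chromosome 3 held 21 (against 14.1% of all loci) and chromosome 4 held 15 (12.1%, against 8.73%). Chromosome 8 held 3 (2.42%, against 6.50%). No test was made of these shares. Another member lay within 10 rows of the table, which lists loci in order along each chromosome, for 10 of 124 members (8.06%), and for 23 of 175 loci (13.1%) in the mirror set, which is larger. The 5 pairs were JAZ9 with JAZ10, LOC_Os01g64360 with LOC_Os01g64440, LOC_Os02g50110 with LOC_Os02g50220, LOC_Os03g14010 with LOC_Os03g14020, and LOC_Os12g16520 with LOC_Os12g16540. No such share was computed for all 16339 loci, so the pairs cannot be called many or few. Reads shared between close copies could link such pairs, which was not tested.

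**Figure D5:**
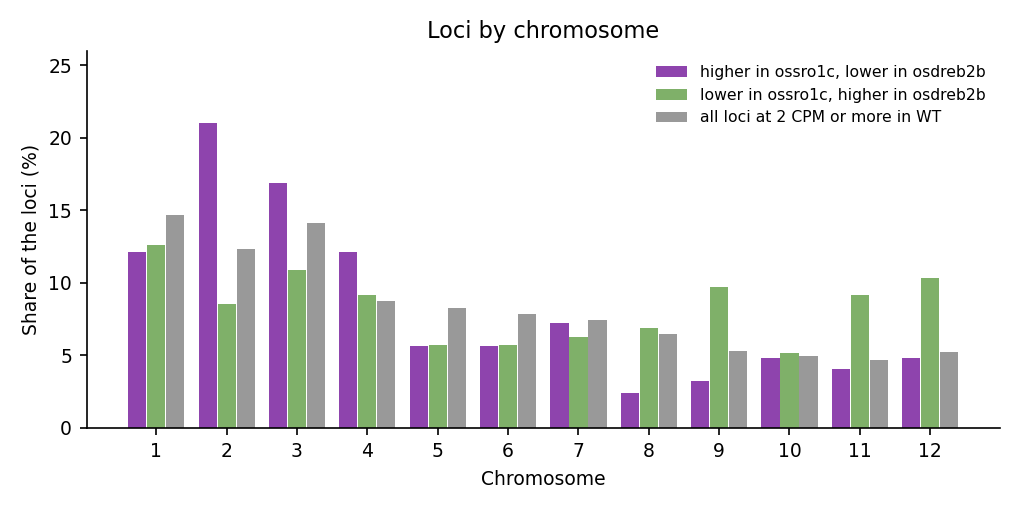
Share of loci on each of the 12 chromosomes for the 124 members (purple), the 175 loci of the mirror set (green) and all 16339 loci at 2 CPM or more in WT (grey). Chromosome 2 holds 21.0% of the members and 12.3% of all loci.

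The size of the set depended on how libraries were scaled. Library totals put the median log2 ratio of the 16339 loci at 0.09 for ossro1c over WT and 0.15 for ossro1c over osdreb2b, and TMM scaling put them at -0.23 and -0.03, so TMM lowers the steps up. Under TMM 92 loci met the rule, 80 of them members, and of the 44 members lost 29 had a step up below 1.5-fold. Of the 18 named members 11 were kept. In the edgeR fit all 124 members were tested, and 112 passed as higher under the ossro1c label, where 29.4% of all genes did. All 124 passed as lower under the osdreb2b label, where 29.6% of all genes did, and 124 as higher in ossro1c than in osdreb2b, where 23.6% did. Of all genes, 60.9% passed in either direction between ossro1c and WT, 59.6% between osdreb2b and WT and 46.5% between the mutants. The rule chose the members on these same contrasts and libraries. Their counts therefore follow largely from the rule, describe the members and carry no test. Loci that passed in both directions numbered 506 of 26112, or 1.94%. On raw library totals instead, 63.2% of the genes called between ossro1c and WT were higher, against 48.4%, and 64.7% of those called between ossro1c and osdreb2b, against 50.8%.

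Markers of leaf, root and dividing cells differed between the groups as well. The summed level of 3 leaf markers with a checked name (CAB1R, CAB2R and RCA, of 12 listed) ran from 3640 to 3720 CPM in ossro1c-labelled libraries, 8700 to 9700 CPM in osdreb2b-labelled libraries and 1720 to 1820 CPM in WT. That of 3 of 4 root markers ran from 20.2 to 23.0 CPM in ossro1c-labelled libraries, 9.36 to 13.3 CPM in osdreb2b-labelled libraries and 2.14 to 2.80 CPM in WT, with LSI2 at 0 throughout. That of 5 of 6 markers of dividing cells ran from 12.9 to 16.1 CPM in ossro1c-labelled libraries, 27.9 to 33.7 CPM in osdreb2b-labelled libraries and 8.89 to 11.2 CPM in WT, with CYCB2;2 under 1 CPM and OSH1 at 0 throughout. None of these markers is a member. Single markers did not all follow the sums. RCA, the activase of Rubisco, made up most of the leaf sum and rose by 1.01 (ossro1c) and 1.65 (osdreb2b) on the log2 scale by edgeR. CAB1R, a chlorophyll-binding protein gene, fell by 2.47 under the ossro1c label and rose by 2.58 under the osdreb2b label, the opposite of the set. CAB2R did not pass under the ossro1c label (0.02) and rose by 4.63 under the osdreb2b label. The root markers LSI1 and SHR1 rose by 2.85 and 2.75 in ossro1c libraries and by 2.08 and 2.53 in osdreb2b libraries. Of the 4 tested markers of dividing cells, PCNA rose under both labels (0.98 for ossro1c and 0.92 for osdreb2b), CDKB2;1 rose under the osdreb2b label (1.86) and did not pass under the ossro1c label (0.05) except on raw library totals (0.36), and CYCB1;1 and CYCB2;2 passed under neither. The part of these markers in the result was not tested. In whole shoots, fewer cells of a type and less RNA per cell cannot be told apart.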

How the data were processed

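Per the labels, total RNA from shoots was extracted with TRIzol and made into libraries with a SMARTER mRNA kit. The authors deposited raw counts per locus for 9 libraries. Tools named in the submitters' processing notes, with no role, are DESeq2, StringTie 2.1.4, HISAT2 2.2.1 and fastp 0.23.4. Genome build, annotation and strand setting: not given in the sources used here. No genome or coordinates were used.

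CPM was computed on library totals and the rule applied to group means. Tests of other genes used edgeR 4.0.16 (R 4.3.3) on the deposited counts, with TMM scaling, filterByExpr (26112 genes), 1 coefficient per group over 9 libraries, robust quasi-likelihood and Benjamini-Hochberg adjustment at 0.05. SE is the log2 change divided by the root of the F statistic. The procedure was tested on simulated data in which few genes changed, and only in the ossro1c group. That setting differs from these data, where 60.9% of genes passed between ossro1c and WT. DESeq2 1.42.0 was an alternative. Exact permutation of 3 against 3 cannot go below p = 0.1.

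Of 473 pairs of locus and name in 27 lists, 306 occurred in the reference table on the same chromosome within 1 Mb of the interpolated position (median distance 0.019 Mb), 11 of them members. Another 13 pairs were recalled after the members were seen, of which 7 were found. Named are all checked members, 4 members by identifier, the JAZ family, and per list up to 3 genes with the smallest adjusted p between the mutants and up to 2 that did not pass. The members and lists were chosen with earlier results of these data known.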

Additional observations from a re-analysis of the deposited data

How the results depend on the processing

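With all libraries and the rule as stated, 124 loci made the set. It held 92 loci under TMM, 95 under upper-quartile scaling and 96 with DESeq2 size factors (80, 90 and 84 of them members), 151 with a WT floor of 1 CPM and 83 with a floor of 5 CPM. A limit of 2-fold against WT gave 54, and no ratio between the mutants gave 225. Requiring no overlap between libraries gave 122. Leaving out 1 library gave 122 to 132 loci, and leaving out 1 replicate number in every group, an alternative chosen after seeing the data, gave 119 to 141. Correlations of deviations between same-numbered libraries ran from -0.023 to 0.132. The highest, 0.132 and 0.115, were for ossro1c with osdreb2b in replicates 2 and 3. Whether the numbers mark a shared harvest or batch was not tested. With the replicate block the set held 127 loci, 123 of them members. With it 15666, 15264 and 11821 genes passed in ossro1c against WT, osdreb2b against WT and ossro1c against osdreb2b. Without it 15892, 15562 and 12147 passed. With 1 library left out these counts ran from 14659 to 16452, 14271 to 16962 and 10713 to 13097. Of the named genes outside the set, HSFA1 under the ossro1c label changed sign under raw library totals (0.003, against -0.32 with TMM). Of all such values under the alternatives, 1538 kept their direction and side of the threshold, 34 came to pass and 26 ceased to. Causes were not tested. The lowest counts of members, 10 to 18 in osdreb2b-labelled libraries, limit the precision of their steps down.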
